A study of Homo sapiens with 6 samples.

Results

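Transcripts of 6 genes that encode SR splicing factors or a close relative, SRSF1, SRSF2, SRSF3, SRSF6, SRSF7 and TRA2B, were examined in the Angel1 eCLIP lists. Every cluster of IP reads that overlapped the span of one of these genes by at least 1 nt on the gene's own strand was taken, which gave 159 of 205520 clusters. The FLAG-only control contributed 16 of its 5717 clusters, FLAG-Angel1 replicate 1 contributed 69 of 102843, and FLAG-Angel1 replicate 2 contributed 74 of 96960. Angel1 is a homolog of the CCR4 deadenylase, and the experiment asked which RNA sequences it contacts. In eCLIP, protein and RNA are cross-linked by UV light, the RNA fragments held by the immunoprecipitated protein are sequenced (the IP), and the same lysate without immunoprecipitation gives a size-matched input.

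The series holds 6 libraries from HEK293 cells of human embryonic kidney origin, here the Flp-In T-REx line in which constructs integrate at a fixed site. FLAG-Angel1 has 2 replicates and the FLAG-only control has 1, each with an IP and its input. Per the labels, all groups were given 5 ng/mL tetracycline for 24 h to induce the construct and were irradiated at 254 nm with 400 mJ/cm2, and the FLAG antibody M2 was used for every IP. The labels give FLAG-Angel1 as the genotype of the control too, whereas the study's methods describe a control line that expressed no FLAG-tagged fusion, and the methods were followed here. The methods also mention a sample without UV exposure, which no label marks. Cluster lists were used for the 3 IPs, and the inputs entered only through the log2 fold of each cluster and its P. The labels do not say whether the 2 replicates came from separate cultures.

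SR proteins bind RNA through RNA recognition motifs and contact other splicing factors through a domain rich in arginine and serine. They define exons for the spliceosome, and several of them shuttle to the cytoplasm and take part in mRNA export and translation. Their own genes are known for regulated exons that carry premature stop codons, through which the proteins limit their own level by nonsense-mediated decay. No annotation of GRCh37, the build of the lists, was used here, so clusters are placed by their distance from the 5′ end of the genomic span, introns included, and are not assigned to exons, introns or UTRs.

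The 3 libraries differed in what they could call. The deposited log2 folds and P fixed the number of reads in each library, which was 209788 for the IP and 3249250 for the input of the control, 3396701 and 722085 in replicate 1, and 2543630 and 2812210 in replicate 2. Over a single input read, the threshold of 0.05 was passed from 2 IP reads upward in the control IP, while replicate 1 required 30 IP reads and replicate 2 required 7. Log2 folds of different libraries therefore rest on different ratios of IP to input and are set side by side without a test. The read numbers given below are inferred from the same deposited values, and an input of 1 may be a minimum set by the pipeline.

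A cluster was called enriched at a P below 0.05 with a log2 fold above 0. Among the clusters of the 6 genes, 18 of 69 were enriched in replicate 1 (26.1%, Wilson 95% interval 17.2% to 37.5%), against 11.7% of all clusters of that library. In replicate 2, 56 of 74 were enriched (75.7%, interval 64.8% to 84.0%), against 40.7% of all clusters. The control ran the other way, with 8 of 16 enriched (50.0%, interval 28.0% to 72.0%), against 91.8% of all its clusters. At the stricter threshold of 0.001, 7 clusters passed in replicate 1 (10.1%) and 46 in replicate 2 (62.2%), where 4.22% and 17.0% of all clusters did. Clusters of a library are not replicates, and these intervals cover counting error only.

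The SR clusters held more reads than most. Their median was 45 IP and 4 input reads in replicate 1, against 24 and 2 over all clusters with known reads, and 33 and 10 in replicate 2, against 8 and 2. In the control they had 3 IP and 19 input reads at the median, against 4 and 2. Reads were known only for clusters with a log2 fold above 0. Of all such clusters, 22.4% were enriched in replicate 1 and 42.8% in replicate 2, against 30.0% and 81.2% of the SR clusters with known reads. When clusters with known reads were restricted to the middle range of the SR clusters in total reads, 38.6% of all were enriched in replicate 1 and 92.3% in replicate 2. The SR clusters in that range were enriched in 10 of 30 cases (33.3%) and 32 of 36 cases (88.9%). Within that range, their shares were thus no higher than those of all clusters with known reads. Read numbers were not matched further inside the range, and total reads include the IP reads behind the fold. In the control range, 81.4% of all clusters with known reads and 4 of 8 SR clusters were enriched. The median log2 fold of the SR clusters was 1.05 in replicate 1 and 1.90 in replicate 2, against 0.57 and 1.73 over all clusters, and 1.96 in the control, against 5.20.

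**Figure D1:**
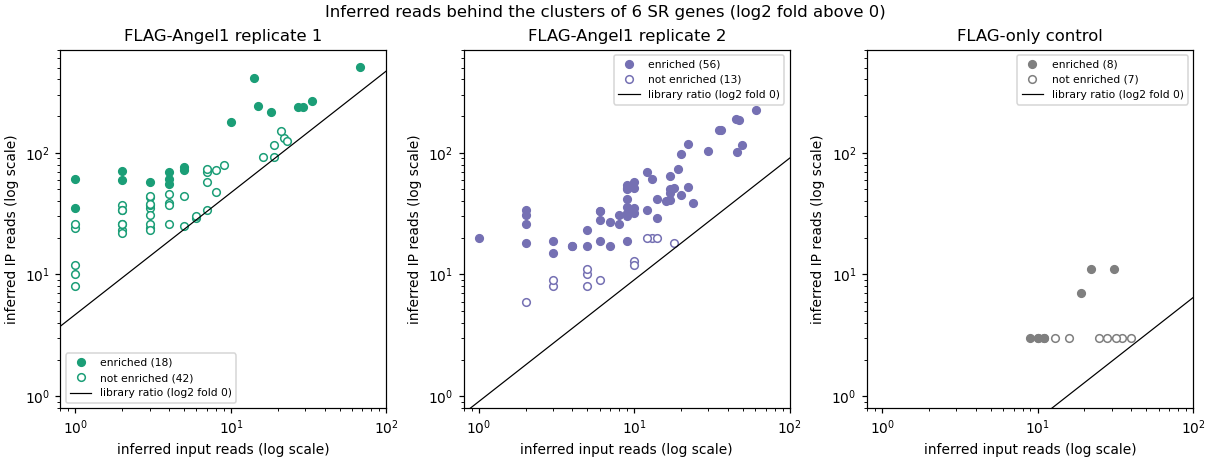
Inferred IP reads (vertical, log scale) against inferred input reads (horizontal, log scale) of each SR gene cluster with a log2 fold above 0 whose reads could be inferred, in FLAG-Angel1 replicate 1, FLAG-Angel1 replicate 2 and the FLAG-only control. Filled points were enriched and open points were not, and the line marks a log2 fold of 0; 12 of the 15 control points lie at 3 IP reads.

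The genes differed in how much of this signal they carried. SRSF1 had the most enriched clusters in both replicates, 7 of 11 in replicate 1 and 16 of 19 in replicate 2, or 1.09 and 2.49 per kb of its span. SRSF2, which has the shortest span, followed in density with 3 of 8 and 7 of 7, or 0.92 and 2.15 per kb. SRSF7 had 4 of 14 and 12 of 12, and SRSF3 had 2 of 12 and 9 of 9. At the other end, SRSF6 had 1 of 10 and 5 of 13, and TRA2B, which has the longest span, had 1 of 14 and 7 of 14, or 0.045 and 0.31 per kb. In replicate 1, SRSF6 and TRA2B stood at 10.0% and 7.14%, near the 11.7% of all clusters, on 1 enriched cluster each. In replicate 2 they lay on either side of the 40.7% of all clusters, at 38.5% and 50.0%. Counts this small do not set either gene apart from the library, and no difference was tested.

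**Figure D2:**
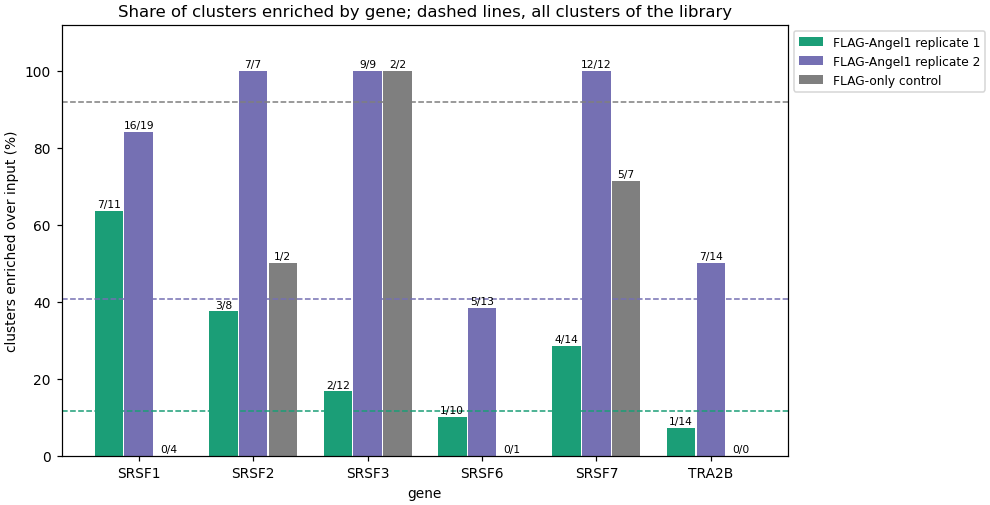
Percent of clusters enriched over input (vertical) for each gene (horizontal) in the 3 libraries, with the number enriched over the number of clusters above each bar; dashed lines mark the share over all clusters of the library of the same color. All clusters of SRSF2, SRSF3 and SRSF7 are enriched in replicate 2, while TRA2B has no control cluster and therefore no control bar.

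Most SR clusters of each replicate had a counterpart in the other replicate, but many sites were enriched in replicate 2 alone. Of the SR clusters, 64 of 69 in replicate 1 (92.8%, interval 84.1% to 96.9%) and 61 of 74 in replicate 2 (82.4%, interval 72.2% to 89.4%) overlapped a cluster of the other replicate, against 52.6% and 54.6% of all clusters. An enriched cluster of replicate 1 lay over an enriched cluster of replicate 2 in 17 of 18 cases (94.4%, interval 74.2% to 99.0%), against 76.8% of all enriched clusters. Conversely, 22 of 56 enriched clusters of replicate 2 lay over one of replicate 1 (39.3%, interval 27.6% to 52.4%), against 23.9%. None of these overlap shares was matched for read number, which was higher in the SR clusters, as given above. With overlapping and abutting clusters of both replicates joined, the 6 genes held 54 regions. Of these regions, 12 were enriched in both replicates, 23 in replicate 2 alone, 1 in replicate 1 alone and 18 in neither. Regions were not joined over the whole series, so these counts have no share beside them. Over all clusters, 11.7% were enriched in replicate 1 and 40.7% in replicate 2, so the excess in replicate 2 is not particular to these genes.

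A reproducible peak was merged from clusters that overlapped between the replicates and that each had a P below 0.001 and a positive log2 fold. The 6 genes had 6 such peaks of 2243 in the series, 4 in SRSF1, 1 in SRSF2 and 1 in SRSF6. Replicate 1 supplied 7 of its 69 SR clusters to these peaks and replicate 2 supplied 12 of its 74, where 3.2% and 3.54% of all clusters formed one. These shares were not matched for read number, and the SR clusters held more reads than most. None of the 6 overlapped an enriched control cluster, but this share was not computed over all 2243 peaks. The peaks of SRSF1 at 193 to 401, 820 to 1001 and 1776 to 1957 nt and that of SRSF2 overlapped control clusters that were not enriched. Where the reads of these control clusters were known, each had 3 IP reads. The median width of the 6 peaks was 182 nt, against 123 nt over all reproducible peaks. The median of the lower log2 fold of the replicates was 1.81, against 2.02.

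**Figure D3:**
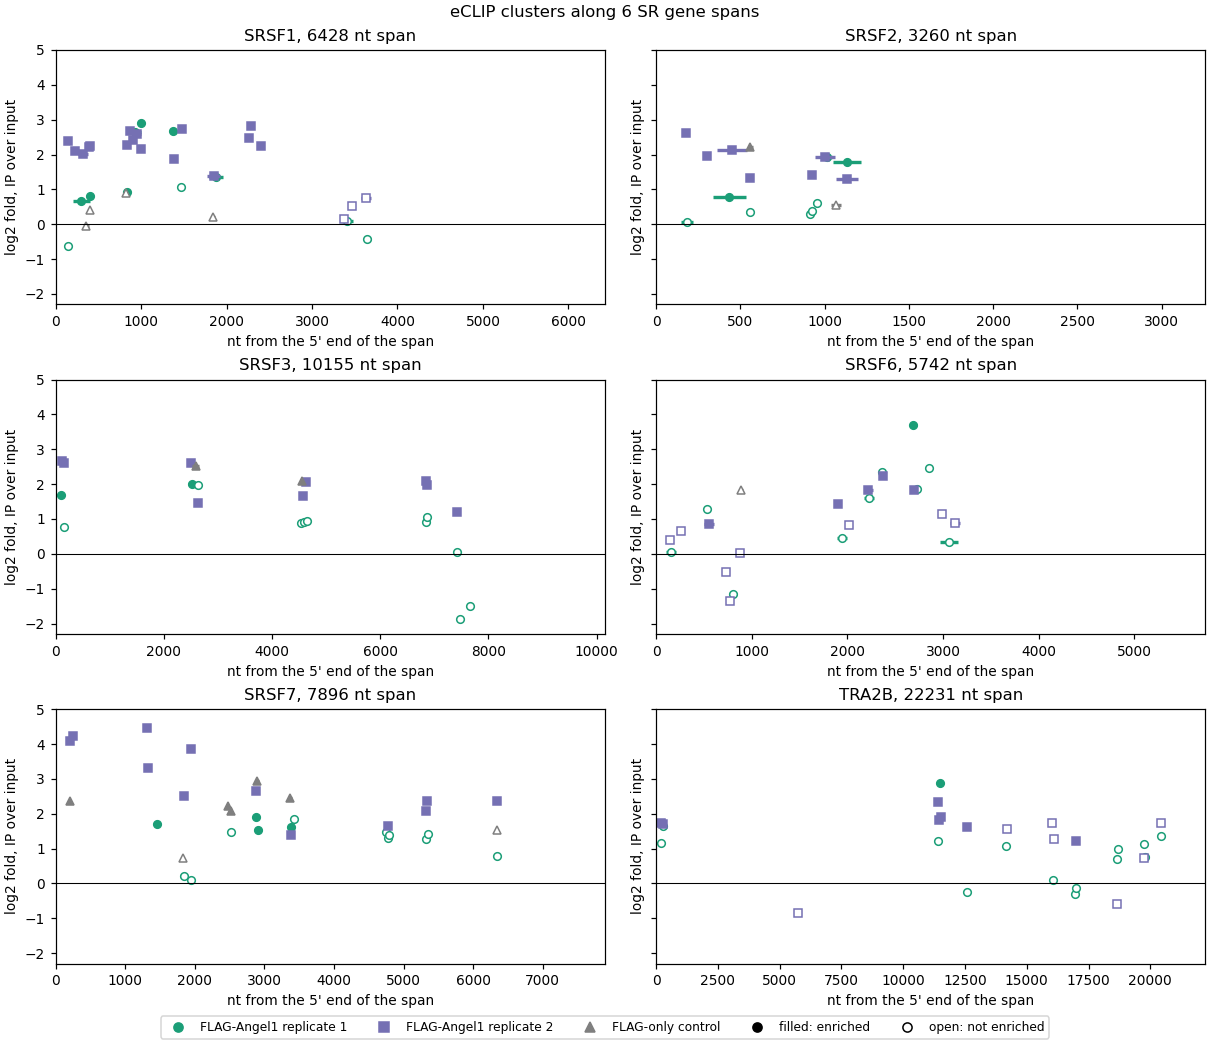
Log2 fold of IP over input (vertical) of every cluster against its distance in nt from the 5′ end of the genomic span (horizontal), with a panel for each of the 6 genes; lines span the cluster, and filled symbols were enriched. In SRSF1 and SRSF2 the enriched clusters lie in the first 2419 and 1217 nt of the span, while in SRSF7 they extend to 6376 nt.

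SRSF1, the prototype of the family and a factor in both constitutive and alternative splicing, carried its reproducible peak with the largest lower log2 fold between 820 and 1001 nt from its 5′ end, at chr17:56083707-56083888 on the minus strand. The most significant cluster there of replicate 1, at 859 to 1001 nt, had a log2 fold of 2.65 (95% counting interval 1.89 to 3.54) from 414 IP and 14 input reads. That of replicate 2, mostly upstream at 820 to 861 nt, had 2.28 (1.75 to 2.86) from 154 and 35. Within 859 to 1001 nt, replicate 2 had 2.58 (1.92 to 3.31) at 921 to 993 nt, and these intervals overlapped. At 820 to 858 nt, replicate 1 had 0.91 (0.33 to 1.54), and its interval lay below that of the replicate 2 cluster at 820 to 861 nt. A peak of 3 nt directly abutted this reproducible peak, at chr17:56083704-56083706, with log2 folds of 2.92 from 71 IP and 2 input reads and 2.14 from 36 and 9. Since abutting clusters can share reads, it may not be a separate site.

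The first reproducible peak of SRSF1, from 193 to 401 nt (chr17:56084307-56084515), had the most reads of all SR clusters but a small fold in replicate 1. There, 506 IP reads over 68 input reads gave a log2 fold of 0.66 (0.29 to 1.05), whereas replicate 2 had 2.01 (1.60 to 2.45) from 223 and 61. These intervals did not overlap. The last, from 1776 to 1957 nt (chr17:56082751-56082932), had nearly equal folds, 1.35 (0.66 to 2.13) from 216 and 18 reads in replicate 1 and 1.39 (0.89 to 1.90) from 116 and 49 in replicate 2.

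Between these peaks, a region from 1375 to 1384 nt was also enriched in both replicates, at log2 folds of 2.67 and 1.88, but the P of replicate 1, with a −log10 of 2.92, missed the threshold of 0.001. Replicate 2 alone was enriched from 121 to 170 nt (2.38), where replicate 1 stood at -0.62, and at 1442 to 1509 nt (2.73), where replicate 1 had 1.07. It was also enriched at 2256 to 2299 nt and at 2385 to 2419 nt, where replicate 1 had no cluster. From 3339 to 3694 nt, clusters of both replicates were found and none was enriched, with log2 folds from -0.43 to 0.77. The remaining 2734 nt of the span (42.5%) held no cluster in either replicate.

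The control had 4 clusters in SRSF1 and none was enriched. They lay at 331 to 389 nt, 390 to 403 nt, 819 to 821 nt and 1834 to 1860 nt, within or beside 3 of the reproducible peaks. Their log2 folds were -0.05, 0.41, 0.89 and 0.22, the last 3 from 3 IP reads each over 35, 25 and 40 input reads. The control thus had reads at these sites without enrichment, from few IP reads.

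SRSF6, which like SRSF1 has paired RNA recognition motifs and acts on alternative exons, had a reproducible peak from 2651 to 2732 nt, at chr20:42089154-42089235 on the plus strand. Replicate 1 had its highest log2 fold of any SR cluster here, 3.70, from 61 IP reads over a single input read, so that the interval ran from 1.16 to 9.02. Replicate 2 had 1.82 (0.76 to 3.01) from 32 and 10 reads. No control cluster lay there. This was the only cluster of SRSF6 enriched in replicate 1.

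In replicate 2, SRSF6 was enriched at 4 further sites, at 499 to 609 nt (0.85), 1876 to 1935 nt (1.42), 2171 to 2265 nt (1.85) and 2365 to 2378 nt (2.23). Replicate 1 had clusters at all of them, with log2 folds of 1.29, 0.47, 1.61 and 2.35 that missed the threshold on 1 to 4 input reads. Both replicates were below 0 around 756 to 847 nt, at -1.14 in replicate 1 and -1.34 in replicate 2. The control had 1 cluster, at 875 to 905 nt, with a log2 fold of 1.84 from 3 IP and 13 input reads that was not enriched. The last 2570 nt of the span (44.8%) held no cluster of either replicate.

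SRSF2, a largely nuclear SR protein that marks nuclear speckles, had its reproducible peak from 943 to 1217 nt, at chr17:74732240-74732514 on the minus strand. The most significant cluster of replicate 1, at 1048 to 1217 nt, had a log2 fold of 1.79 (1.04 to 2.65) from 244 IP and 15 input reads. That of replicate 2, mostly upstream at 943 to 1064 nt, had 1.94 (1.34 to 2.58) from 104 and 30. Within 1048 to 1217 nt, replicate 2 had 1.29 (0.78 to 1.83) at 1065 to 1197 nt. Over the replicate 2 cluster at 943 to 1064 nt, replicate 1 had 1.92 at 976 to 1047 nt. It had 0.61 at 931 to 975 nt, which was not enriched. The counting intervals of the replicates overlapped in each of these pairings. Beyond the reproducible peak, the last 2043 nt (62.7% of the span) held no cluster.

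Closer to the 5′ end of SRSF2, both replicates were enriched around 336 to 541 nt, with a log2 fold of 0.77 (0.25 to 1.34) from 265 and 33 reads in replicate 1 and 2.12 (1.65 to 2.62) from 185 and 47 in replicate 2. Replicate 2 alone was enriched at 164 to 192 nt (2.60), where replicate 1 had 0.06 from 93 and 19 reads. At both sites the intervals of the replicates did not overlap. The control had an enriched cluster at 543 to 576 nt, with a log2 fold of 2.22 (-0.28 to 4.17) from 3 IP and 10 input reads. Its counting interval included 0, as did those of the other enriched control clusters with 3 IP reads. At this site replicate 2 was enriched at 1.31 and replicate 1 was not at 0.35. A second control cluster, at 1041 to 1096 nt within the reproducible peak, was not enriched at 0.54 from 3 and 32 reads. SRSF2 was also the only gene of the 6 with clusters on the opposite strand, 2 in replicate 1 and 1 in replicate 2, against 0 for the control IP, and none was enriched.

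SRSF3, the smallest SR protein and an adaptor for mRNA export, had no reproducible peak at the threshold of 0.001 but 2 regions enriched in both replicates. In the region from 2448 to 2657 nt, the leading clusters had log2 folds of 2.01 (0.39 to 4.33) in replicate 1 from 57 IP and 3 input reads and 2.62 (1.58 to 3.83) in replicate 2 from 50 and 9. The control was enriched in the same region, at 2529 to 2657 nt, with 2.51 (1.02 to 3.83) from 7 and 19 reads. The region from 63 to 169 nt had no control cluster, with 1.69 (0.41 to 3.36) in replicate 1 from 76 and 5 reads and 2.66 (1.67 to 3.79) in replicate 2 from 57 and 10.

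All 9 clusters of SRSF3 in replicate 2 were enriched, the others lying at 4536 to 4673 nt, 6840 to 6878 nt and 7396 to 7445 nt with log2 folds from 1.20 to 2.10. Replicate 1 had clusters at each of them with log2 folds from 0.04 to 1.05, and none was enriched. The other control cluster, at 4537 to 4576 nt, was enriched at 2.08 from 3 and 11 reads. Near the end of the signal, replicate 1 alone had clusters at 7474 to 7478 nt and 7652 to 7662 nt, where the share of input reads exceeded that of IP reads, at -1.86 and -1.50.

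SRSF7, which carries a zinc knuckle beside its RNA recognition motif and is likewise an export adaptor, had a P below 0.001 in 12 of 12 clusters of replicate 2 but in 0 of 14 clusters of replicate 1, and so no reproducible peak. Its leading region enriched in both replicates lay from 2841 to 2918 nt. The log2 fold there was 1.90 (0.48 to 3.81) in replicate 1 from 70 IP and 4 input reads and 2.65 (1.61 to 3.86) in replicate 2 from 51 and 9. In the control it was 2.95 (1.76 to 4.06) from 11 and 22 reads, at 2879 to 2916 nt. The FLAG-only IP was thus enriched at this site as well.

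The same held for the other region of SRSF7 enriched in both replicates, from 3337 to 3446 nt, where the log2 fold was 1.61 in replicate 1 and 1.39 in replicate 2, and where the control had 2.46 (1.32 to 3.49) from 11 and 31 reads. The highest log2 folds of SRSF7 lay nearer the 5′ end, at sites where replicate 2 was enriched and replicate 1 was not. They were 4.10 and 4.23 in abutting clusters from 176 to 267 nt, 4.47 and 3.31 in abutting clusters from 1301 to 1345 nt, and 3.85 from 1933 to 1966 nt, each over 1 or 2 input reads. The first of these sites also held an enriched control cluster, at 184 to 223 nt, under the cluster of 4.10. That control cluster had 2.37 (-0.15 to 4.37) from 3 and 9 reads. Replicate 1 had a cluster only at the last of these sites, with a log2 fold of 0.09 from 30 and 6 reads, and the intervals did not overlap. Replicate 1 in turn was enriched at 1424 to 1481 nt (1.70 from 61 and 4 reads), where replicate 2 had no cluster.

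With 7 clusters, SRSF7 had more of the control signal than any other of the 6 genes. Besides those above, the control was enriched at 2471 to 2492 nt (2.22) and 2512 to 2516 nt (2.08), from 3 IP reads over 10 and 11 input reads. At 1803 to 1852 nt (0.73) and 6315 to 6362 nt (1.54), 3 IP reads lay over 28 and 16 input reads, and neither was enriched. Replicate 2 was enriched over these last sites at 2.50 and 2.37, and replicate 1 was not, at 0.22 and 0.79.

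TRA2B, an SR-like protein that binds purine-rich enhancers to activate exons, had its only cluster enriched in replicate 1 at 11449 to 11540 nt, near the middle of the span, at chr3:185644385-185644476 on the minus strand. The log2 fold there was 2.90 from 35 IP reads over a single input read, with an interval of 0.32 to 8.24. Over this cluster, replicate 2 was enriched at 11437 to 11503 nt, at 1.81 (0.43 to 3.42) from 19 and 6 reads, and at 11504 to 11537 nt, at 1.91 (0.41 to 3.70) from 17 and 5. The intervals of both overlapped that of replicate 1. Directly upstream, at 11402 to 11436 nt, replicate 2 was enriched at 2.35 (0.92 to 4.10) from 23 and 5 reads, where the cluster of replicate 1 had 1.23 and was not enriched.

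Replicate 2 was further enriched in TRA2B at 144 to 313 nt (1.73 and 1.70 in abutting clusters), 12505 to 12675 nt (1.61) and 16948 to 17027 nt (1.22). Replicate 1 had 1.15 and 1.64 at the first of these and values below 0 at the others. Clusters continued to 20470 nt, leaving 1761 nt (7.92%) without any, the smallest share of the 6 genes. From 14152 nt onward, 1 cluster of TRA2B was enriched, in replicate 2. The control had no cluster in the span, but its IP held 209788 reads in all, so a site without a control cluster is not shown to be free of background.

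Each of the 64 SR clusters of replicate 1 that overlapped replicate 2 was paired with 1 overlapping cluster of replicate 2. A replicate 2 cluster could serve in more than 1 pair, so the pairs are not independent. Replicate 2 had the higher log2 fold in 47 of the 64 pairs (73.4%), and the difference had a median of 0.74 with an SD of 1.04. Over the 54100 such pairs of the series, replicate 2 was higher in 81.3%, and the median and SD of the difference were 1.10 and 1.25. Of the 55 SR pairs with counting intervals in both replicates, 7 had intervals that did not overlap, 3 in SRSF1, 2 in SRSF2 and 2 in SRSF7, and replicate 2 was higher in all 7. SRSF6 stood at the low end, with replicate 2 higher in 4 of 9 pairs and a median difference of -0.03, and SRSF1 at the high end with 1.19.

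**Figure D4:**
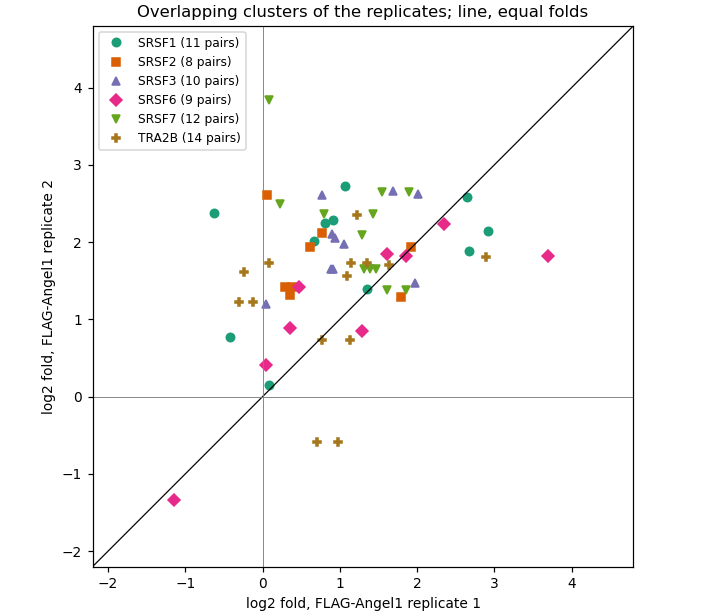
Log2 fold of IP over input in FLAG-Angel1 replicate 2 (vertical) against replicate 1 (horizontal) for 64 pairs, each of a replicate 1 cluster with 1 overlapping replicate 2 cluster, with a symbol for each gene and a line at equal folds. Most pairs lie above the line (47 of 64), and those of SRSF6 lie on either side of it.

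Control clusters lay under the enriched SR clusters more often than under enriched clusters in general. In replicate 1, 10 of 18 enriched SR clusters overlapped a control cluster (55.6%, interval 33.7% to 75.4%), against 10.9% of all enriched clusters, and 4 of the 10 lay over an enriched one. In replicate 2 it was 16 of 56 (28.6%, interval 18.4% to 41.5%), against 4.95%, with 7 over an enriched one. The SR clusters also held more reads, as given above, and the part of read number in these overlaps was not tested. Of the 12 regions enriched in both replicates, 4 had no control cluster, and they lay in SRSF1 (1375 to 1384 nt), SRSF3 (63 to 169 nt), SRSF6 (2651 to 2737 nt) and TRA2B (11399 to 11540 nt). The same share was not computed over the series, where most enriched clusters lay over no control cluster. With 209788 reads in its IP, the control does not show these 4 regions to be free of background.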

How the data were processed

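The authors called clusters on GRCh37 (hg19) for each IP on its own, using the Yeo laboratory's eCLIP pipeline (cutadapt, STAR, UMI-tools and SAMtools per the submitters' processing notes, versions not given in the sources used here). The deposited log2 values are log2 folds of IP over input, and the deposited −log10 P values are capped at 400 and stand at 0 for log2 folds of 0 or below. How reads matching several places were treated is not given in the sources used here, so reads of near-identical gene copies may be included.

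Members, gene spans and lists were chosen with earlier results of these data known. Clusters were assigned by overlap of at least 1 nt on the same strand. Reads were inferred from the size ratio of each library, with the commonest log2 fold read as 3 IP reads per input read, and from the P of Fisher's exact test or, with all cells at least 5, the chi-square test with Yates correction. They are given where exactly 1 pair of whole numbers returned both values (99.9% of control and 99.9% of replicate 1 clusters with a log2 fold above 0 and a P below 1, and a larger share in replicate 2), within 1e-12 of the ratio and 2e-04 of −log10 P. Counting intervals are 95% Clopper-Pearson intervals and shares have Wilson intervals. Both cover counting error only, since PCR copies and neighboring clusters are not independent. No test was made between libraries.

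All reproducible peaks and control clusters are named by rule, and for genes without such a peak the enriched pair or cluster with the largest log2 fold. Other sites were named after their values were seen. Alternatives covered the thresholds, overlap, strand, joining of abutting clusters, clusters over the control, SRSF1 and each replicate. Sequences, exons and other SR genes were not analysed here. The read inference was tested on simulated data. Python 3.11.15, numpy 2.4.6, pandas 2.3.3, scipy 1.17.1, mpmath 1.4.1 and matplotlib 3.10.9 were used.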

Additional observations from a re-analysis of the deposited data

How the results depend on the processing

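Of 66 alternatives over all results, 49 left the value within 1.5 times of a count or within the interval of a share or median, and 17 moved it. The control had 8 enriched SR clusters, replicate 1 had 18 and replicate 2 had 56. At the threshold of 0.001 there were 3 for the control and 7 for replicate 1, and where the log2 fold had to reach 3 there were 0, 1 and 5 for the control and the respective replicates. In replicate 1 it was 11 with SRSF1 left out and 8 without clusters over any control cluster, and in replicate 2 it was 37 with abutting clusters joined. These settings admit fewer clusters by construction. The 6 reproducible peaks became 13 at the threshold of 0.05 and 0 where the log2 fold had to reach 3 in both replicates. With each replicate left out in turn, 7 to 46 clusters passed 0.001.

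The share of enriched clusters of replicate 1 found in replicate 2, 94.4%, became 7 of 7 (100%) at the threshold of 0.001. In the other direction, 39.3% became 26.1% at that threshold and 85.7% with any cluster as partner. The median log2 fold over enriched clusters only was 1.74 in replicate 1 and 2.11 in replicate 2. The share enriched in replicate 2 was 88.9% in the middle range of total reads, an alternative chosen after seeing the data. That range holds only clusters with known reads, and so with a log2 fold above 0. In it the comparison with all clusters turned, from 26.1% against 11.7% to 33.3% against 38.6% in replicate 1, and from 75.7% against 40.7% to 88.9% against 92.3% in replicate 2. Part of this change came from leaving out clusters without known reads, which by itself gave 30.0% against 22.4% and 81.2% against 42.8%. No paired analysis was possible because the shared numbers join an IP with its own input, which is already part of each fold, and no test was run. Depth limits the control through its IP of 209788 reads and replicate 1 through its input of 722085 reads.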
